A study of Mus musculus with 8 samples.

Results

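The histone genes of 32D cells, a murine IL-3-dependent myeloid progenitor line, were followed in 8 RNA sequencing libraries. They were taken as every protein-coding gene of the deposited table named as a member of the H1, H2A, H2B, H3 or H4 families (the symbols H1f, H2ac, H2bc, H2ax, H2az, H2aj, H3c, H3f and H4c), which gave 76 of the 56748 genes listed. By name, 61 were replication-dependent genes, 8 were variants made throughout the cell cycle, and 7 were germline genes. The libraries came from single-cell-derived clones that expressed either murine Jak2WT or Jak2V617F, the activating mutation of myeloproliferative neoplasms. In each background, clones with intact GLUT1 and GLUT3 (GLUT1/3 WT) were set beside clones with both glucose transporters knocked out (GLUT1/3 dKO), so the 4 groups were Jak2WT GLUT1/3 WT, Jak2WT GLUT1/3 dKO, Jak2V617F GLUT1/3 WT and Jak2V617F GLUT1/3 dKO. Clones 1 and 3 of each group gave 1 library each (n = 2). All had been kept for 24 h with 5 mM glucose, 1 mM glutamine, 10% fetal calf serum and 2 ng/ml IL-3, without pyruvate, and sequenced from poly(A)-captured RNA.

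Histones package DNA into nucleosomes, whose core holds H2A, H2B, H3 and H4, while H1 binds the linker DNA between them. Replication-dependent histone genes lie in clusters, are transcribed mainly in S phase, and give mRNAs that usually end in a conserved stem-loop instead of a poly(A) tail. Replication-independent variants such as H3.3, H2A.Z and H1.0 are encoded by genes outside the clusters. Such variants are made through the cell cycle from ordinary polyadenylated mRNAs, and replace the replicative histones in chromatin. A poly(A)-captured library therefore samples polyadenylated variant mRNAs, but of the replication-dependent genes mainly the transcripts that carry a tail.

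Reads on genes ranged from 16846011 to 48884329 per library. Slc2a1 and Slc2a3, the edited genes, kept 9.17 to 17.3 FPKM and 16.03 to 49.5 FPKM in the dKO libraries, against 44.7 to 64.0 FPKM and 91.9 to 198 FPKM in the GLUT1/3 WT libraries, FPKM being fragments scaled to the length of the gene and the size of the library. Of 9 myeloid progenitor markers, 3 reached 1 FPKM and 2 were at 0 in every library, and the defining markers Mpo, Elane, Kit and Cd34 were at or near 0, so the myeloid label rested on the 3 markers that did, the IL-3 receptor genes Csf2rb and Il3ra and the granule protease gene Prtn3 (3.11 to 10.2 FPKM). Csf2rb itself was lower with dKO in Jak2V617F, at 55.4 and 48.9 FPKM against 127 and 131 FPKM (limma adjusted p = 0.00126), where H1f0, H2aj, H3f3b and H2bc21 also fell, and its part in those results was not tested. T cell markers summed to at most 0.097 FPKM and B cell markers to at most 0.708 FPKM in a library. Because the samples are bulk RNA, fewer cells of a type and less RNA per cell cannot be told apart.

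The sequence that sets replication-dependent genes apart was present in nearly all of them. The stem-loop was searched as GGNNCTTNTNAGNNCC, on the coding strand, in the 150 bases after the stop codon (GRCm39), and was found in 59 of 61 replication-dependent genes, at a median of 30 bases from the stop codon. It was found in 4 of 7 germline genes and in 1 of 8 variants, H2ax. The sites of the members the results turn on are shown with the 16 bases of the stem-loop in capitals.
H1f2: caaaaGGCTCTTTTCAGAGCCaccactccc
H4c9: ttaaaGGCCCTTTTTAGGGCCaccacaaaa
H2ac8: acaaaGGCTCTTTTCAGAGCCattcactta
H1f5: ccaaaGGCTCTTTTCAGAGCCacctagaga
H2ax: acaaaGGCCCTTTTAAGGGCCaccacctcc
The capitals of H1f2, H2ac8 and H1f5 were identical, and 38 of the 59 sites in replication-dependent genes had these same 16 letters. The site of H4c9 differed from them within the stem and loop, as did that of H2ax. The replication-dependent genes with no match were H2ac22, whose closest stretch was 1 letter off, and H2bc21, whose closest stretch in the window was 3 letters off among the 10 fixed letters.

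Expression followed the same line. The 7 variants that had reads took the first 7 ranks by mean FPKM over the 8 libraries, from 25.1 FPKM for H2az2 to 324 FPKM for H3f3b, while the highest replication-dependent gene, H1f2, averaged 12.8 FPKM. The median of the class means was 90.6 FPKM for the variants and 0.230 FPKM for the replication-dependent genes. Of the 61 replication-dependent genes, 6 had no reads in any library (H2ac18, H2ac19, H2ac21, H2bc18, H3c13 and H3c14, each of which overlaps another listed gene), 38 stayed above 0 in at least 1 library but below 1 FPKM in all, and 10 passed the minimum of 1 FPKM in at least 2 libraries that a gene needed to be tested. The median replication-dependent gene held 4 to 8 reads in a library. Of the germline genes, 4 had no reads and none was tested, and the best-covered one, H3f4, held 0.307 to 0.901 FPKM and overlaps Trim17 on the same strand. H1f10, the remaining variant, was listed at 0 in every library and also overlaps other listed genes. Whether reads of these genes were lost in mapping or counting was not tested. In all, 17 of the 76 genes were tested.

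**Figure D1:**
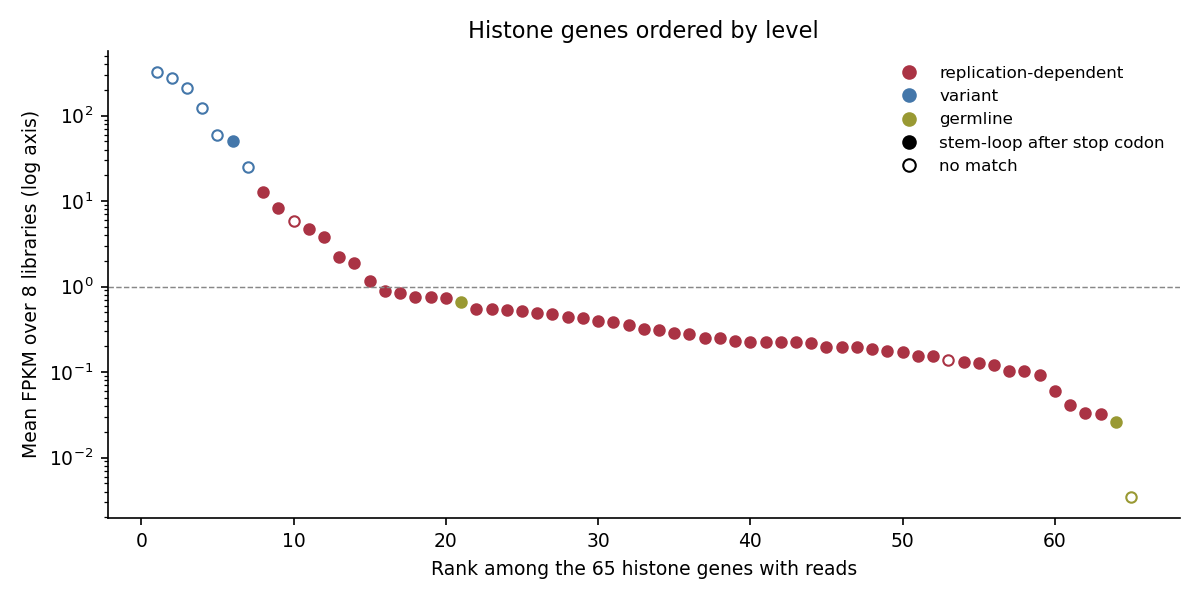
Mean FPKM over the 8 libraries (log axis) of the 65 histone genes with reads, in order of level, coloured by class and filled where the stem-loop was found after the stop codon. The 7 variants lie above every replication-dependent gene, and only 8 replication-dependent genes reach a mean of 1 FPKM, the dashed line.

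The length of the gene model past the stem-loop, which a polyadenylated transcript can use, differed among the replication-dependent genes. In 23 of the 59 genes with the stem-loop the listed gene ran 100 bases or more past it, and these had a median level of 0.316 FPKM, with 5 genes at a mean of 1 FPKM or more. In the other 36 the median was 0.225 FPKM, with 2 genes at that mean. The model of H1f2, the linker histone H1.2, ran 840 bases past its stem-loop and that of H4c9 ran 330 bases, and both ended with the polyadenylation signal AATAAA, or with its common variant ATTAAA, in the last 40 bases. H4c12, with 4.77 FPKM on average, was an exception, since its model ended 44 bases before the end of the stem-loop. Genes of a family are near copies: of the 100-base stretches in their transcripts, a median of 37.1% was shared with another histone gene, 64.3% for H4c12, 80.7% for H4c18 and 15.1% for H4c9, against 5.06% for H1f2 and 0 for H2bc21 and H1f5, so reads could be split between copies in the former. Among the variants only H2ax shared any, at 1.40%.

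RNAs without a tail gave few counts in this table. Of 9 other RNAs without a poly(A) tail, 6 were at 0 in every library and only Rn7sk, a small nuclear RNA, exceeded 1 FPKM, with 1.55 to 9.46 FPKM. The reason for these zeros was not tested. The share of histone FPKM that came from replication-dependent genes was 3.74% to 7.61%, and how much of it reflects tailed transcripts and how much carry-over was not tested.

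Summed by class, the replication-dependent genes gave 49.1 and 43.4 FPKM in Jak2WT GLUT1/3 WT clones 1 and 3, and 50.1 and 42.1 FPKM in Jak2WT GLUT1/3 dKO. They gave 63.4 and 63.7 FPKM in Jak2V617F GLUT1/3 WT, and 45.5 and 86.2 FPKM in Jak2V617F GLUT1/3 dKO. The dKO libraries overlapped the GLUT1/3 WT libraries in both backgrounds, and both Jak2V617F GLUT1/3 WT libraries lay above both Jak2WT GLUT1/3 WT libraries. The 2 Jak2V617F dKO clones stood furthest apart of any pair, with a mean of 65.8 FPKM ± 28.8 (SD, n = 2). The ratio of the dKO to the GLUT1/3 WT mean was 0.997 in Jak2WT and 1.04 in Jak2V617F, and without Jak2V617F dKO clone 1 the latter was 1.36, without clone 3 it was 0.715.

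The variants showed another pattern. Their sum was 1054 and 1116 FPKM in Jak2WT GLUT1/3 WT, 912 and 963 FPKM in Jak2WT dKO, 1285 and 1214 FPKM in Jak2V617F GLUT1/3 WT, and 939 and 1046 FPKM in Jak2V617F dKO. In each background both dKO libraries lay below both GLUT1/3 WT libraries, with ratios of the means of 0.864 in Jak2WT and 0.794 in Jak2V617F. These sums are given as descriptions, with no test.

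**Figure D2:**
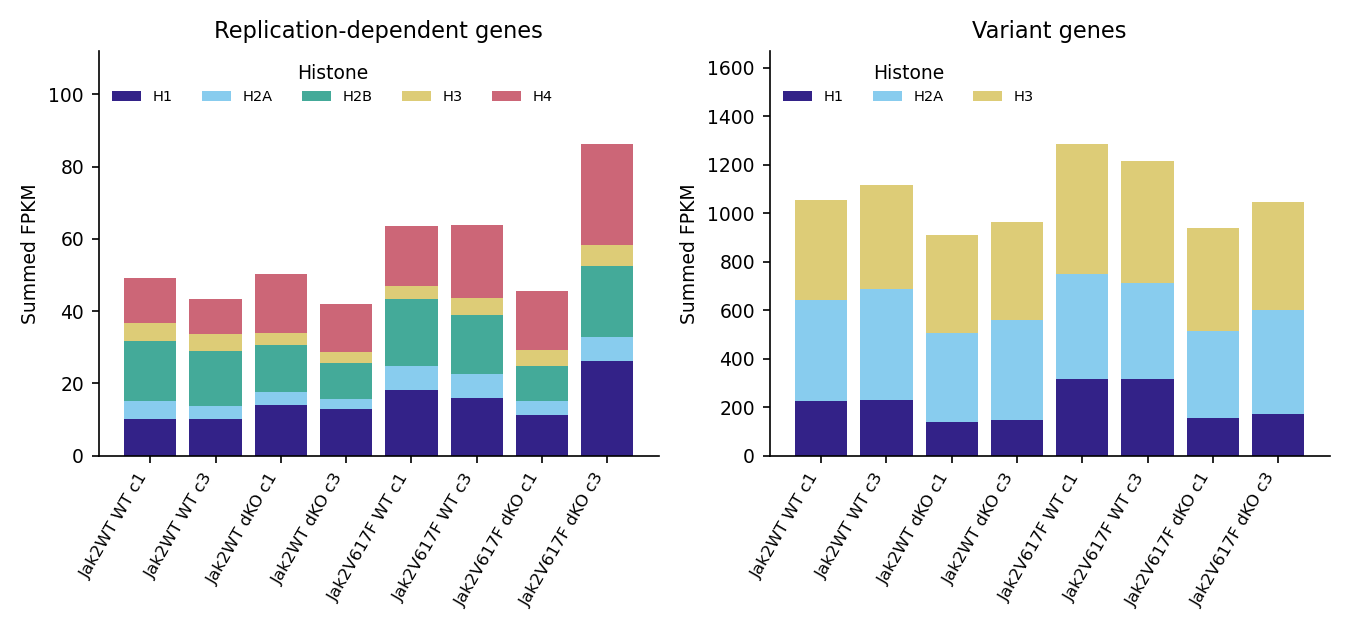
Summed FPKM of the 61 replication-dependent genes (left) and the 8 variants (right) in each library, stacked by histone family, with c1 and c3 for clones 1 and 3. The replication-dependent sum is highest in Jak2V617F dKO clone 3 at 86.2 FPKM, and the variant sum is lower in both dKO libraries than in both GLUT1/3 WT libraries of each background.

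Within families the variants held most of the signal. H3f3a and H3f3b, which encode the same H3.3 protein, made up 98.6% to 99.2% of H3 FPKM. H2az1 and H2az2, the H2A.Z genes, made up 67.3% to 75.9% of H2A FPKM. H1f0, the linker variant H1.0 that is known to build up in differentiating and resting cells, made up 95.7% and 95.8% of H1 FPKM in Jak2WT GLUT1/3 WT, 90.8% and 92.0% in Jak2WT dKO, 94.6% and 95.2% in Jak2V617F GLUT1/3 WT, and 93.3% and 86.8% in Jak2V617F dKO. Both dKO groups lay below the GLUT1/3 WT group of their background. H1f2 was its main replication-dependent counterpart, with 13.4% to 27.7% of all replication-dependent FPKM. The order of the variants by mean was H3f3b, H2az1, H1f0, H3f3a, H2aj, H2ax and H2az2, and the ranges over libraries overlapped between each neighbouring pair except H3f3a and H2aj, and H2ax and H2az2.

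The first question was what loss of GLUT1/3 changed in Jak2WT cells. Of the 17 histone genes tested with limma, 1 rose (background: 7.62% of the 11818 genes tested rose) and 2 fell (background: 6.06% fell), at a Benjamini-Hochberg adjusted p under 0.05 over all genes tested. The median log2 fold change was 0.06 over the 10 replication-dependent genes and -0.14 over the 7 variants, beside 0.01 over all genes tested. H1f0 and the H2B gene H2bc21 fell, and the H4 gene H4c9 rose. All fold changes are on the log2(FPKM + 1) scale, which understates those of low genes.

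H1f0 (ENSMUSG00000096210, chr15:78912650-78914704, GRCm39, + strand) was at 227 and 228 FPKM in Jak2WT GLUT1/3 WT, 138 and 149 FPKM in Jak2WT dKO, 318 and 317 FPKM in Jak2V617F GLUT1/3 WT, and 155 and 172 FPKM in Jak2V617F dKO. Both dKO libraries were below both GLUT1/3 WT libraries in each background, and the highest level was that of Jak2V617F GLUT1/3 WT. An antisense gene, Gm49544, overlaps H1f0, and without a stated strand setting its reads could not be told apart from those of H1f0. The log2 fold change with dKO in Jak2WT was -0.66 ± 0.08 (SE), with a limma adjusted p of 0.00679. The call was lost without Jak2WT GLUT1/3 WT clone 1, without its clone 3 and without Jak2WT dKO clone 1, with adjusted p up to 0.0591 over 18 alternatives.

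H2bc21 (ENSMUSG00000068854, chr3:96128435-96131054, + strand), a replication-dependent H2B gene by name that lacks the stem-loop match, was at 8.23 and 7.79 FPKM in Jak2WT GLUT1/3 WT and 4.26 and 3.66 FPKM in Jak2WT dKO. In Jak2V617F it was at 8.93 and 8.85 FPKM with GLUT1/3 WT and 2.26 and 3.42 FPKM with dKO. The dKO and GLUT1/3 WT libraries did not overlap in either background. In Jak2WT the log2 fold change was -0.86 ± 0.14 (SE), with a limma adjusted p of 0.0128 (0.00214 to 0.0906 over 18 alternatives, the call being lost without any 1 of the 4 libraries compared, and at 0.0542 with no filter on low values). Its share of replication-dependent FPKM went from 16.8% and 17.9% to 8.50% and 8.69% in Jak2WT, and from 14.1% and 13.9% to 4.98% and 3.97% in Jak2V617F.

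H4c9 (ENSMUSG00000060639, chr13:22224806-22225532, - strand), one of 12 H4 genes, was at 4.24 and 2.54 FPKM in Jak2WT GLUT1/3 WT and 8.67 and 9.13 FPKM in Jak2WT dKO. It was at 8.29 and 9.51 FPKM in Jak2V617F GLUT1/3 WT and 9.02 and 14.9 FPKM in Jak2V617F dKO. Jak2WT GLUT1/3 WT was therefore the low group, below all other libraries. With dKO in Jak2WT the log2 fold change was 1.20 ± 0.24 (SE), with a limma adjusted p of 0.0224, and without any 1 of the 4 libraries compared the call was lost, with adjusted p up to 0.118. It was also lost with no filter on low values (limma adjusted p = 0.0881). The value of 2.54 FPKM rests on 32 reads.

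H1f2 (chr13:23922791-23924350) was at 6.57 and 7.28 FPKM in Jak2WT GLUT1/3 WT and 12.4 and 11.6 FPKM in Jak2WT dKO, with no overlap. Its log2 fold change of 0.71 ± 0.34 (SE) did not pass (limma adjusted p = 0.202). That SE pools the spread of all 4 groups, including the Jak2V617F dKO clones, which were at 9.48 and 23.9 FPKM. H1f5, the H1.5 gene, was at 1.5 and 1.24 FPKM against 0.707 and 0.519 FPKM, a log2 fold change of -0.55 ± 0.17 (SE) that did not pass either (limma adjusted p = 0.0703). The 51 replication-dependent genes below the test's minimum together held 18.0 and 13.9 FPKM in Jak2WT GLUT1/3 WT and 10.2 and 7.26 FPKM in Jak2WT dKO, with 265 to 784 reads in a library over all groups. Their sum was thus lower in both Jak2WT dKO libraries, whereas the sum of the 10 tested genes was 31.1 and 29.5 FPKM against 40.0 and 34.8 FPKM, higher in both.

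The promoters of the genes that moved are shown for comparison, from 250 bases before to 50 bases after the listed start (GRCm39), with the searched motifs in capitals. These were the TATA box TATAAA, the CCAAT box, the octamer ATTTGCAT of H2B promoters, the H1 box AAACACA of linker histone promoters, and, as E2F sites, TTTCCCGC with its relative TTTGGCGC. Each was searched on both strands, and overlaps between motifs were kept.
H1f0 promoter, chr15:78912400-78912699: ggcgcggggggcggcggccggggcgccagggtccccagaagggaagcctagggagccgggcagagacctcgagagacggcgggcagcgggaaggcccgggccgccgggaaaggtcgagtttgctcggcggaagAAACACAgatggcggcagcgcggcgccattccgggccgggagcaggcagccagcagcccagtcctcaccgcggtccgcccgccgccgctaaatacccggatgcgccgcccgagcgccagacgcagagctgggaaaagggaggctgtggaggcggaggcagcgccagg
H2bc21 promoter, chr3:96128185-96128484: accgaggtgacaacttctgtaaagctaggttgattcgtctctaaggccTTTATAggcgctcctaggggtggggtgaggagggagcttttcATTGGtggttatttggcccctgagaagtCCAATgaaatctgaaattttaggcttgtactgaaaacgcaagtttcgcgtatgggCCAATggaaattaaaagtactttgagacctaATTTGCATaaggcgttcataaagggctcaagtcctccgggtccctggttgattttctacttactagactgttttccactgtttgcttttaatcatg
H4c9 promoter, chr13:22225483-22225782: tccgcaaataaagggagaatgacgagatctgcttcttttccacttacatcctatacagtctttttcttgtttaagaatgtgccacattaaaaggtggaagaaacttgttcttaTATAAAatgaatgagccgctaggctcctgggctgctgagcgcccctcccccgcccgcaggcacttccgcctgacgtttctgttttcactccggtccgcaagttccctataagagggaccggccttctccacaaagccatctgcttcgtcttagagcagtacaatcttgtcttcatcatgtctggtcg
The window of H2bc21 held an octamer at base -46 from the start, 3 CCAAT boxes and 1 TATAAA, the latter on the opposite strand at -202. That of H1f0 held the H1 box at -117 and no other searched motif, as H1f2 held it at -113. Over the 61 replication-dependent genes, CCAAT was present in 83.6% of windows against 39.2% of 21906 protein-coding promoters, and TATAAA in 55.7% against 12.7%. The octamer was present in 7 of 16 H2B and 5 of 16 H2A genes, and in 1.59% of all promoters. The octamers of H2ac8, H2ac6, H2ac20 and H2ac12 are the same bases as those of their neighbours H2bc8, H2bc4, H2bc21 and H2bc12. Where windows of neighbouring genes overlap, a site is counted for both genes, which holds for CCAAT and TATAAA too. The H1 box was present in 3 of 5 replication-dependent H1 genes and 6.41% of all promoters. The E2F letters were found in 3 of 12 H4 genes and 2.00% of all promoters, and in none of the variants. In H4c12 and H4c4 they lay after the listed start, at 19 and 14, in the coding sequence, and only in H4c1 before it. All of these motif hits are matches of letters and say nothing of binding.

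The second question was what loss of GLUT1/3 changed in Jak2V617F cells. Here 0 of the 17 histone genes rose in the limma test (background: 13.7% of all genes rose), also at an unadjusted p under 0.05 and with voom on the recovered reads, and 4 fell (background: 16.2% fell). The genes that fell were H2bc21, H1f0, the H2A variant gene H2aj and the H3.3 gene H3f3b. H2bc21 fell by 1.38 on the log2 scale (± 0.14, SE) with a limma adjusted p of 0.000978, and H1f0 fell by 0.95 (± 0.08, SE) with a limma adjusted p of 0.000583. Both calls held in all 18 alternatives. The 9 other replication-dependent genes gave log2 fold changes from -0.24 to 0.67, none past the test.

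H2aj encodes H2A.J, a variant close to canonical H2A that differs at its C-terminus. It was at 49 and 57.1 FPKM in Jak2WT GLUT1/3 WT, 45.7 and 47.6 FPKM in Jak2WT dKO, 86.4 and 77.5 FPKM in Jak2V617F GLUT1/3 WT, and 56.5 FPKM in both Jak2V617F dKO clones. The Jak2V617F GLUT1/3 WT libraries were the highest, apart from all others. H2aj fell by 0.53 (± 0.10, SE) on the log2 scale with dKO in Jak2V617F, with a limma adjusted p of 0.00784, in all 18 alternatives, whereas in Jak2WT its log2 fold change was -0.18 ± 0.10 (SE, limma adjusted p = 0.259).

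H3f3b was at 304 and 319 FPKM in Jak2WT GLUT1/3 WT, 296 and 297 FPKM in Jak2WT dKO, 389 and 373 FPKM in Jak2V617F GLUT1/3 WT, and 291 and 320 FPKM in Jak2V617F dKO. Again Jak2V617F GLUT1/3 WT was the high group with both libraries above all others, and the Jak2WT dKO libraries lay below the Jak2WT GLUT1/3 WT libraries without overlap. It fell by 0.32 (± 0.08, SE) with dKO in Jak2V617F (limma adjusted p = 0.026), a call made in 11 of 18 alternatives. It was lost without Jak2V617F dKO clone 1 (limma adjusted p = 0.111), and without either clone of Jak2V617F GLUT1/3 WT or of Jak2WT GLUT1/3 WT (limma adjusted p = 0.0546 to 0.0975). H3f3a, which encodes the same protein, was at 106 and 111, 111 and 108, 147 and 130, and 132 and 127 FPKM in the 4 groups in the same order. Its dKO libraries overlapped the GLUT1/3 WT libraries in both backgrounds.

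The remaining variants did not pass with dKO in either background. H2az1 was at 295 and 325, 253 and 288, 268 and 246, and 237 and 273 FPKM in the 4 groups, and H2az2 was at 24.8 and 23.9, 21.7 and 22.4, 27.1 and 25.5, and 25.8 and 29.7 FPKM. H2ax, whose product is phosphorylated at DNA breaks, was at 47.5 and 53.3, 46.3 and 52.1, 50 and 44.9, and 41.0 and 67.7 FPKM. The spread of H2ax between the Jak2V617F dKO clones was larger than any difference between group means of that gene.

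Clone 3 of Jak2V617F dKO also stood above clone 1 for most replication-dependent genes. H1f2 was at 17 and 14.0 FPKM in Jak2V617F GLUT1/3 WT and at 9.48 and 23.9 FPKM in Jak2V617F dKO, so that the dKO clones lay on either side of the GLUT1/3 WT clones. H2bc4 was at 1.29 and 1.19 FPKM against 1.24 and 4.63 FPKM, H2bc8 at 5.06 and 3.85 FPKM against 3.58 and 7.57 FPKM, and H4c18 at 1.52 and 1.72 FPKM against 0.937 and 2.58 FPKM. H2bc21, at 2.26 and 3.42 FPKM, remained low in both clones. Without clone 1 of Jak2V617F dKO, H1f2, H2bc4 and H2ax passed as higher, in a fit where the lone clone is assumed to vary like the other groups, so the count of 0 genes that rose rests on that clone.

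**Figure D3:**
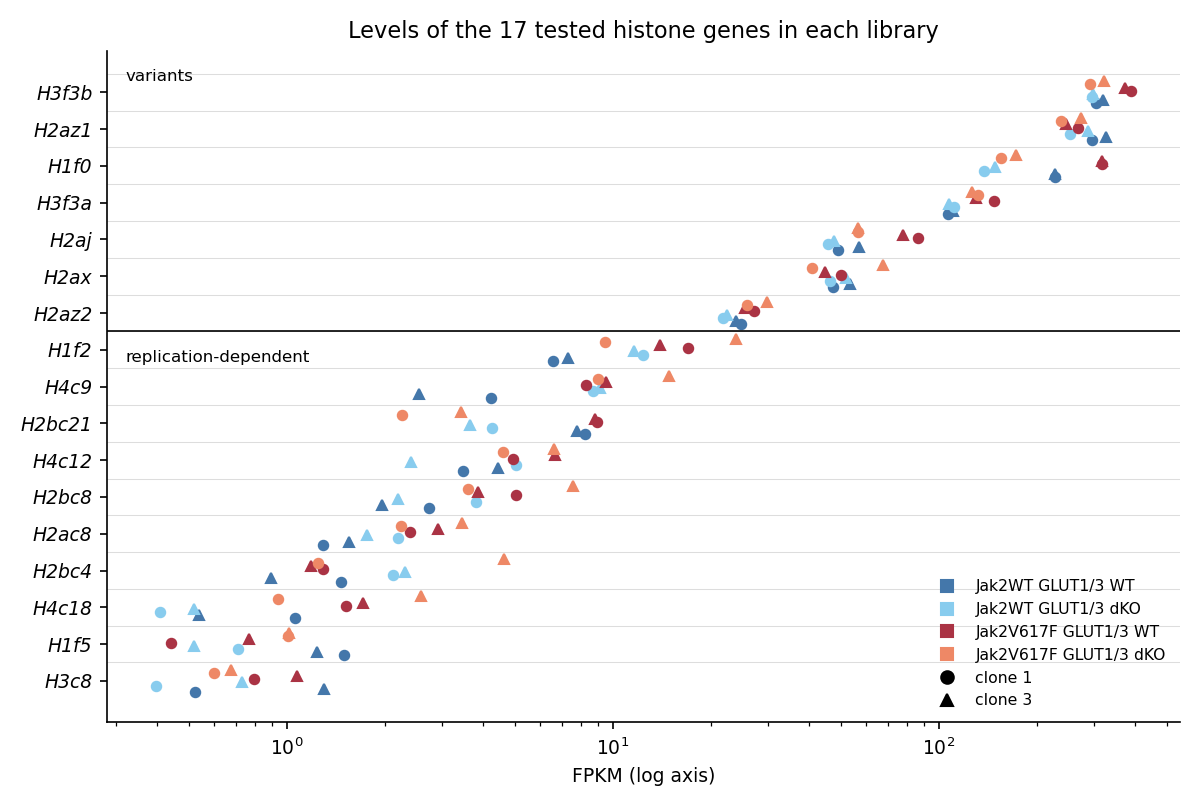
FPKM (log axis) of the 17 tested histone genes in each of the 8 libraries, coloured by group, with circles for clone 1 and triangles for clone 3. H1f0 and H2bc21 are lower in every dKO library than in every GLUT1/3 WT library, and the triangles of Jak2V617F dKO lie to the right for H1f2, H2bc4, H2bc8 and H4c18.

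The other replication-dependent genes among the 10 highest, H4c12, H2bc8, H2bc4, H4c18 and H3c4, had higher group means in Jak2V617F than in Jak2WT in both GLUT1/3 states. H4c12 was at 3.48 and 4.43, 5.05 and 2.41, 4.94 and 6.67, and 4.61 and 6.61 FPKM in the 4 groups, and H3c4, which was not tested, at 0.687 and 0.554, 0.981 and 0.585, 0.636 and 0.913, and 0.990 and 1.40 FPKM. For H4c12 the libraries with and without GLUT1/3 overlapped in both backgrounds, and its values rest on 24 to 62 reads. In Jak2WT, H2bc4 was at 1.46 and 0.897 FPKM against 2.12 and 2.30 FPKM with dKO, H2bc8 at 2.74 and 1.96 FPKM against 3.80 and 2.2 FPKM, and H4c18 at 1.06 and 0.536 FPKM against 0.407 and 0.519 FPKM, none past the test.

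Jak2V617F was next compared with Jak2WT among GLUT1/3 WT clones. This comparison and the preceding one share the Jak2V617F GLUT1/3 WT libraries, so a gene that is high there is higher in the one and lower in the other. In Jak2V617F, 6 of the 17 histone genes rose in the limma test (background: 15.3% of all genes rose) and 1 fell (background: 14.9% fell). The 6 were the variants H1f0, H2aj, H3f3a and H3f3b and the replication-dependent genes H4c9 and H2ac8, and the gene that fell was H1f5. The median log2 fold change was 0.50 over the replication-dependent genes and 0.29 over the variants, with 14 of the 17 values above 0, beside a median of 0.01 over all genes tested. Scaling each library to the same summed FPKM moved the median of all genes by -0.14 on the log2 scale in this comparison, and then 4 histone genes rose and 2 fell, H1f5 and H2az1 (log2 fold change -0.42, limma adjusted p = 0.0186), with H2ac8 (limma adjusted p = 0.0763) and H3f3b (limma adjusted p = 0.168) no longer called.

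H2aj rose by 0.62 ± 0.10 (SE, limma adjusted p = 0.00433) and H1f0 by 0.48 ± 0.08 (SE, limma adjusted p = 0.00635) on the log2 scale, both in all 18 alternatives. H4c9 rose by 1.20 ± 0.24 (SE, limma adjusted p = 0.0106), in 15 of 18, the call being lost without Jak2WT GLUT1/3 WT clone 3 and without Jak2V617F GLUT1/3 WT clone 3 (limma adjusted p = 0.062 and 0.0525). H3f3a rose by 0.35 ± 0.09 (SE, limma adjusted p = 0.0208) in 14 of 18, not without either Jak2WT GLUT1/3 WT clone or without Jak2V617F GLUT1/3 WT clone 1 (limma adjusted p = 0.0859 to 0.121). H3f3b rose by 0.29 ± 0.08 (SE, limma adjusted p = 0.0347) in 8 of 18, not without any 1 of the 4 libraries compared or of the 2 Jak2WT dKO libraries (limma adjusted p = 0.0607 to 0.181).

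H2ac8, an H2A gene beside H2bc8 on chromosome 13, was at 1.29 and 1.56 FPKM in Jak2WT GLUT1/3 WT and 2.39 and 2.91 FPKM in Jak2V617F GLUT1/3 WT, with 2.19 and 1.76 FPKM in Jak2WT dKO and 2.25 and 3.44 FPKM in Jak2V617F dKO. Jak2WT GLUT1/3 WT was below every other library. The log2 fold change between backgrounds among GLUT1/3 WT was 0.59 ± 0.18 (SE, limma adjusted p = 0.041), a call made in 9 of 18 alternatives and lost without any 1 of the 4 libraries compared or of the 2 Jak2WT dKO libraries (limma adjusted p = 0.0574 to 0.174). H1f5 was at 0.44 and 0.768 FPKM in Jak2V617F GLUT1/3 WT and 1.01 FPKM in both Jak2V617F dKO clones, against 1.5 and 1.24 FPKM in Jak2WT GLUT1/3 WT. Its log2 fold change was -0.57 ± 0.17 (SE, limma adjusted p = 0.0415), on 7 to 44 reads in these 8 libraries, and was called in 7 of 17 alternatives. It was not called without any 1 library other than Jak2V617F GLUT1/3 WT clone 3 and Jak2V617F dKO clone 1 (limma adjusted p = 0.0501 to 0.19). H1f2 gave the largest value that did not pass, 1.05 ± 0.34 (SE, limma adjusted p = 0.0539).

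**Figure D4:**
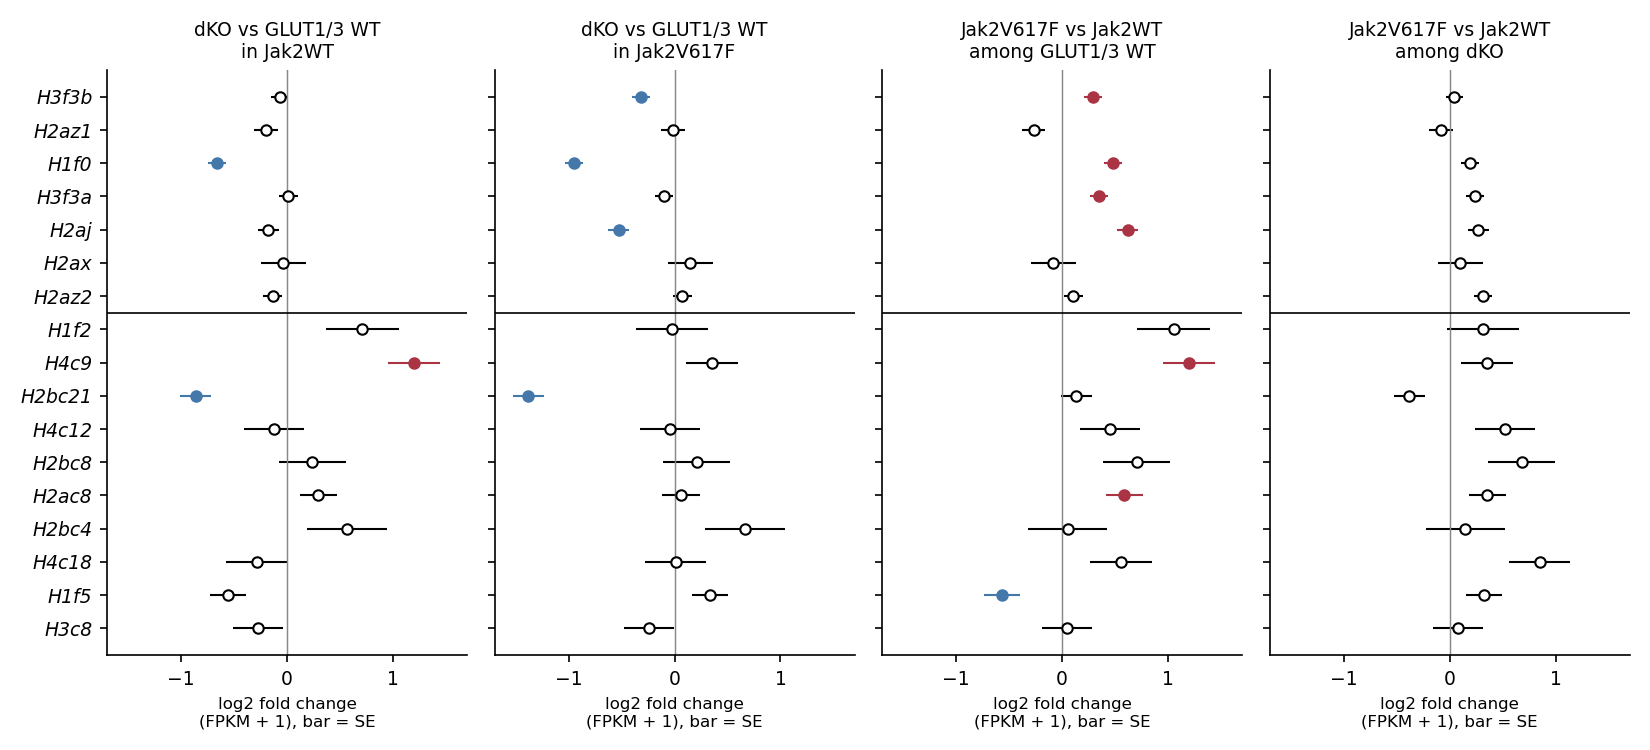
Log2 fold change of the 17 tested histone genes on the FPKM + 1 scale in the 4 pairwise comparisons, with bars of 1 SE. Filled points passed the limma test at an adjusted p under 0.05, red where higher and blue where lower, and the line separates variants (above) from replication-dependent genes (below). H1f0 and H2bc21 are filled in both dKO comparisons, and no gene is filled in the last panel.

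Among dKO clones, 0 of the 17 histone genes rose and 0 fell between Jak2V617F and Jak2WT in the limma test, against a background of 7.12% that rose and 9.96% that fell. At an unadjusted p under 0.05 they were 4 and 1, and with voom on the recovered reads 1 and 0. The count of 0 that rose rests on Jak2V617F dKO clone 1, since 4 passed as higher without it, and 3 did with each library scaled to the same summed FPKM. The lowest adjusted p was that of H2az2, with a log2 fold change of 0.31 ± 0.09 (SE, limma adjusted p = 0.0504), which passed in 6 of 18 alternatives. H4c18 differed by 0.85 ± 0.29 (SE, limma adjusted p = 0.09) and H2bc21 by -0.38 ± 0.14 (SE, limma adjusted p = 0.117). H1f0, at 138 to 149 FPKM and 155 to 172 FPKM, differed by 0.19 ± 0.08 (SE, limma adjusted p = 0.172).

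The change with dKO was then compared between backgrounds by an interaction term. In the limma test 0 of the 17 histone genes had a higher and 0 a lower change in Jak2V617F, against a background of 4.72% and 5.91% of all genes. At an unadjusted p under 0.05 they were 1 and 4, and with voom 0 and 0. H1f5 came closest, with a difference of 0.89 ± 0.24 (SE, limma adjusted p = 0.0584), since its dKO values lay below the GLUT1/3 WT values in Jak2WT and above them in Jak2V617F. The differences for H2bc21 (-0.52 ± 0.20, SE) and H1f0 (-0.29 ± 0.12, SE) had limma adjusted p of 0.141 and 0.158, so a larger fall in Jak2V617F was not shown for either.

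Genes that make and handle histone mRNA and protein were set beside the histone genes, with no test between the lists. S phase genes, with which replication-dependent histone transcription is coupled, did not pass with dKO in Jak2WT (0 of 16 in either direction in the limma test, 2 higher and 0 lower at an unadjusted p under 0.05), but 15 of 16 rose with dKO in Jak2V617F, with a median log2 fold change of 1.14 (background: 13.7% of all genes rose and 16.2% fell). The exception was Ccna2. Mcm3, a subunit of the replicative helicase, was at 37.3 and 33.8 FPKM in Jak2V617F GLUT1/3 WT and 80.4 and 86.1 FPKM in Jak2V617F dKO. Over the 10 replication-dependent histone genes the median in that comparison was 0.04, and over all genes tested it was -0.02. That median rests on 2 unlike clones, being 0.39 without Jak2V617F dKO clone 1 and -0.25 without clone 3, whereas the S phase median was 1.16 and 1.11.

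Of 15 tested genes for processing and regulation of histone mRNA, 5 rose with dKO in Jak2V617F (Slbp, Eri1, Casp8ap2, Npat and Cstf2) and 1 fell (Sympk), against the same background of 13.7% and 16.2%. Slbp, which binds the stem-loop shown above, was at 19.8 and 17.1 FPKM in Jak2V617F GLUT1/3 WT and 37.0 and 29.9 FPKM in Jak2V617F dKO, a log2 fold change of 0.82 ± 0.13 (SE, limma adjusted p = 0.00431). Npat, the coactivator of replication-dependent histone genes, went from 11.8 and 12.2 FPKM to 15.6 and 17.4 FPKM, a log2 fold change of 0.43 ± 0.08 (SE, limma adjusted p = 0.00864). In Jak2WT, 0 of these 15 genes rose in the limma test (1 at an unadjusted p under 0.05) and 1 fell, again Sympk, against a background of 7.62% and 6.06%.

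Of 21 tested histone chaperone and exchange genes, 9 rose and 1 fell with dKO in Jak2V617F (background: 13.7% and 16.2%), and 0 passed in Jak2WT in the limma test, also at an unadjusted p under 0.05. Among those that rose were Chaf1b and Chaf1a, subunits of the replication-coupled H3-H4 chaperone CAF-1, Asf1b and Nasp, which carry H3 and H4, and Tonsl, which binds newly made H4. Chaf1b was at 7.61 and 8.91 FPKM in Jak2WT GLUT1/3 WT, 3.08 and 1.97 FPKM in Jak2V617F GLUT1/3 WT and 9.18 and 8.37 FPKM in Jak2V617F dKO, so that Jak2V617F GLUT1/3 WT was the low group. Its log2 fold change with dKO in Jak2V617F was 1.49 ± 0.16 (SE, limma adjusted p = 0.00109). Between backgrounds among GLUT1/3 WT clones, 9 chaperone genes and 13 S phase genes fell in Jak2V617F and none rose (background: 14.9% of all genes fell and 15.3% rose). Among dKO clones, 5 of 16 S phase genes rose in Jak2V617F and 0 fell, and 1 chaperone gene rose and 1 fell (background: 7.12% rose and 9.96% fell). Macroh2a1, a macroH2A variant outside the 76 genes, was at 52.3 and 56.6, 33.7 and 35.9, 32.3 and 30.4, and 15.4 and 22.6 FPKM in the 4 groups, and fell in all 4 pairwise comparisons.

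**Figure D5:**
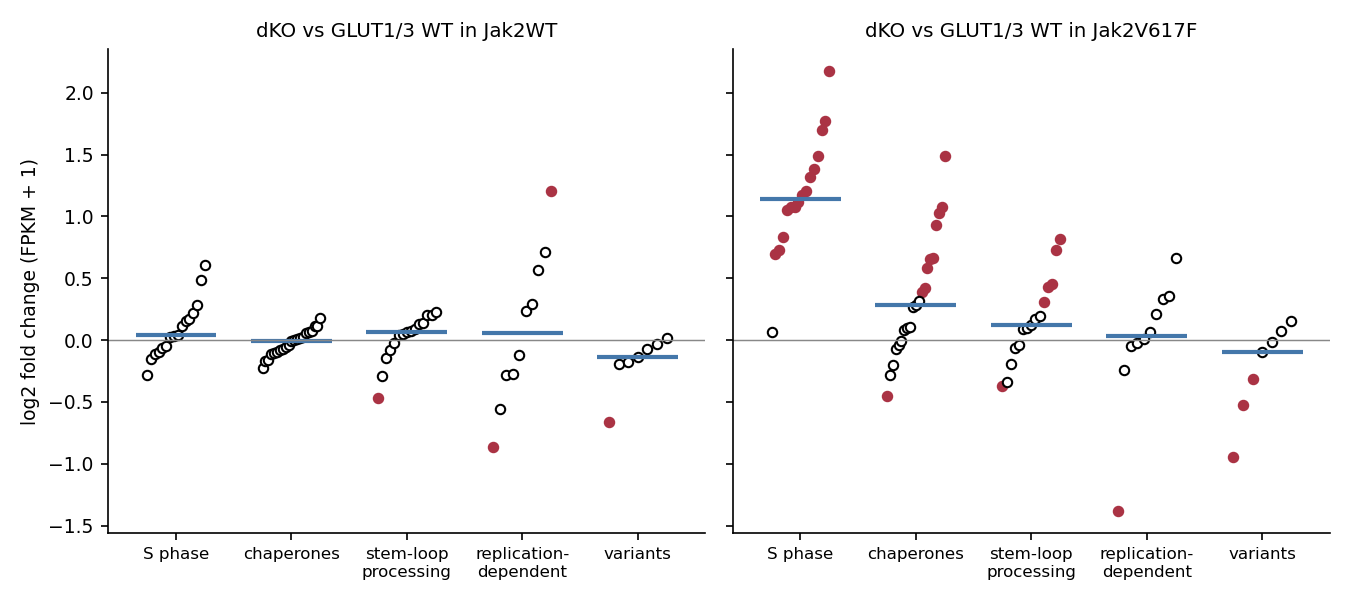
Log2 fold change with dKO on the FPKM + 1 scale in Jak2WT (left) and Jak2V617F (right) of tested S phase, chaperone, stem-loop processing, replication-dependent histone and variant histone genes, with filled points past the limma test and a line at each median. In Jak2V617F the S phase median is 1.14 and that of the replication-dependent histone genes 0.04, which becomes 0.39 or -0.25 with clone 1 or clone 3 of Jak2V617F dKO left out.

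Erythroid genes also differed between the groups. All 9 erythroid markers were above 0 in at least 1 library and their summed level was 94.0 to 112 FPKM in Jak2WT GLUT1/3 WT, 246 to 291 FPKM in Jak2WT dKO, 553 to 910 FPKM in Jak2V617F GLUT1/3 WT and 2582 to 4679 FPKM in Jak2V617F dKO. Most of that sum was globin mRNA (Hba-a1, Hbb-bs and Hbb-bt) in Jak2V617F dKO, where Hbb-bs alone was at 2209 and 1437 FPKM. Of the 7 erythroid genes tested with limma, 2 rose and 0 fell with dKO in Jak2WT (3 and 0 at an unadjusted p under 0.05, background: 7.62% and 6.06%). With dKO in Jak2V617F 5 rose and 1 fell (background: 13.7% and 16.2%), and in Jak2V617F among GLUT1/3 WT clones 5 rose and 0 fell in the limma test (also 0 at an unadjusted p under 0.05, background: 15.3% and 14.9%), where no S phase or chaperone gene rose. The gene called lower was Gata1, the erythroid transcription factor, at 30.9 and 28.8, 24.9 and 28.2, 58.1 and 48.7, and 41.1 and 34.0 FPKM in the 4 groups (limma adjusted p = 0.0246 with dKO in Jak2V617F, up to 0.118 over 18 alternatives). By group means, 3 of the 17 tested histone genes followed the order of the erythroid sum, H1f2, H2bc8 and H2ac8, and 14 did not. Of all genes tested, 5.31% followed it. In all 3, Jak2V617F dKO clone 1 lay below both Jak2V617F GLUT1/3 WT clones, so the match rests on clone 3. Clone 1 had the higher erythroid sum, 4679 FPKM against 2582 FPKM. H4c9 missed the order by a near tie, with group means of 8.90 FPKM in both Jak2WT dKO and Jak2V617F GLUT1/3 WT. Among the 14 were H1f0, H2aj and H3f3b, being highest in Jak2V617F GLUT1/3 WT, and H2bc21 was lowest in the group with the highest erythroid sum. The part of erythroid genes in the histone results was not tested.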

How the data were processed

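RNA of 8 libraries (2 single-cell-derived clones in each of 4 groups) had been sequenced as paired reads. Per the submitters' processing notes, the authors cleaned reads (fastp 1.0.1), aligned them to mm39, which is GRCm39 (with HISAT2 2.2.1), counted them per gene (featureCounts 2.0.6) and deposited FPKM values. The strand setting, and so the treatment of antisense genes, and the annotation version are not given in the sources used here. FPKM times gene length gave whole multiples of 1 step per library for 100% of values (tolerance 0.01 of a step), from which reads were recovered. All 8 columns were used. The deposited values already had a common median ratio to the geometric mean.

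Groups were compared with limma 3.58.1 (R 4.3.3) on log2(FPKM + 1), with 4 group means, a mean-variance trend and Benjamini-Hochberg adjustment over the 11818 genes with at least 1 FPKM in at least 2 libraries. A call is an adjusted p under 0.05. Each clone was sequenced once, so p-values rest on the spread between the 2 clones of a group. For each gene this spread was pooled over all 4 groups, also those not compared, and moderated by the trend over all genes. The script was tested on simulated data. Values in per-library lists are for clones 1 and 3 in that order. Named with values were all variants, all called members and the 10 replication-dependent genes of highest mean FPKM. The histone genes, their classes and the other gene lists were chosen with earlier results of these data known. Alternatives were another pseudocount, filter, scaling, empirical Bayes step or sample set, voom on recovered reads, a replicate block, and each library left out. Sequences were read from GRCm39 with GENCODE vM39 stop codons. Gene spans were those of the deposited table, identical to vM39 for 53 of 61 replication-dependent genes and 4 of 8 variants.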

Additional observations from a re-analysis of the deposited data

Results flagged for a closer look

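The change with dKO differed between Jak2V617F and Jak2WT for genes beside the histone genes, by the limma interaction term with Benjamini-Hochberg adjusted p under 0.05, while 0 of the 17 tested histone genes passed it (5 at an unadjusted p under 0.05, and 0 by voom on recovered reads). Of the S phase genes, 15 of 16 passed, all with the higher change in Jak2V617F. Of the chaperone genes, 7 of 21 passed, and the log2 differences were 1.41 for Chaf1b, 1.14 for Tonsl, 1.01 for Asf1b, 0.98 for Chaf1a, 0.76 for Nasp, 0.74 for Hjurp and 0.59 for Ubn1. The background was 4.72% of all genes tested with a higher change. Groups of 2 libraries allowed no search for single libraries that stand apart.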

How the results depend on the processing

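With 2 clones per group and few reads on replication-dependent genes, the counts of called histone genes moved by 1 or more under many settings, and the cause was not tested. No fold change of a called gene reversed. With dKO in Jak2WT, 1 gene rose and 2 fell, and the counts were 2 higher when only the groups compared were fitted and 1 lower without the filter, and 3 lower with no trend or the same summed FPKM. Leaving out 1 library gave 0 to 2 higher and 0 to 2 lower. With dKO in Jak2V617F, 0 genes rose and 4 fell, and leaving out 1 library gave 0 to 3 higher and 3 to 5 lower, while no filter or only the groups compared gave 3 lower. For Jak2V617F against Jak2WT among GLUT1/3 WT, 6 higher became 3 without the filter and 2 to 7 with 1 library left out, and 1 lower became 0 with a mean FPKM of at least 1, voom, only the groups compared or the replicate block, 2 with the same summed FPKM, and 0 to 1 with 1 library left out. Among dKO, 0 higher became 1 with a mean FPKM of at least 1, robust estimates, the median ratio or voom, 3 with the same summed FPKM, and 0 to 4 with 1 library left out, and 0 lower became 1 without the filter and 0 to 1 with 1 library left out. For the interaction, 0 higher became 1 with no trend or the same summed FPKM, and 0 lower became 0 to 2 with 1 library left out. Of the sums, the dKO ratio of replication-dependent genes in Jak2WT went from 0.997 to 0.868 without H1f2 and to 1.10 without H2bc21 (chosen after seeing the data), and that of the variants from 0.864 to 0.807 with the same summed FPKM.

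Clone numbers did not pair the libraries (correlations of same-numbered clones' deviations from -0.254 to 0.152). The replicate block gave 5 higher and 0 lower among GLUT1/3 WT, against 6 and 1, and the same counts as the fit without it in the other comparisons.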
